A study of Mus musculus with 7 samples.

Results

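The genes described here are those that make, activate, move, break down and O-acetylate sialic acid in the mouse liver. They were taken from the deposited table by gene symbol, as the rows for Gne, Nans, Nanp, Cmas, Cmah, Slc35a1, Slc17a5, Npl, Casd1 and Siae. All 10 were found, of 54532 genes in the table. Liver RNA had been sequenced from 4 mice on caloric restriction (CR) and 3 mice fed ad libitum (AL), all male C57BL/6 and 30 weeks old, with 1 library per mouse. The CR mice had been held at 30% restriction in single cages with 1 meal a day, and the AL mice had free access to food and shared cages. The diets began at 12 weeks of age and lasted 18 weeks. Effects of the diet therefore cannot be told apart from those of housing and of meal time.

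Sialic acids are acidic sugars that cap the glycans of cell surface and secreted glycoproteins. They are built in the cytosol from UDP-GlcNAc (UDP-N-acetylglucosamine), coupled to CMP in the nucleus, carried into the Golgi and added there to glycan ends, and the liver uses them on most of the glycoproteins it secretes into serum. Mice carry both Neu5Ac (N-acetylneuraminic acid) and its hydroxylated form Neu5Gc (N-glycolylneuraminic acid), and either can bear O-acetyl groups.

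Of the 10 genes, 4 fell in CR livers. Cmah, which hydroxylates CMP-Neu5Ac to CMP-Neu5Gc, was 7.48-fold lower by the ratio of group means. Nans, which makes the phosphorylated form of Neu5Ac, was 2.04-fold lower, Cmas, which couples sialic acid to CMP, was 1.62-fold lower, and Casd1, which O-acetylates sialic acid, was 1.33-fold lower. Values are FPKM, that is fragments counted in a gene per kilobase of its length with depth scaled out. The length counts all annotated exons of a gene, so the order of genes by level depends on that annotation. A gene was tested when it reached 0.5 FPKM in at least 3 of the 7 livers, on log2(FPKM + 0.1), by limma across all 12699 such genes. It was called at an adjusted p under 0.05 (Benjamini-Hochberg over all genes tested). Of the 10 genes, 8 could be tested, and Nanp and Npl were too low. In the 8, 4 fell, where 10.2% of all tested genes fell, and 0 rose, where 11.3% of all tested genes rose. At an unadjusted p under 0.05 in limma, 1 of the 8 was higher and 4 were lower in CR livers. With limma-voom on the recovered reads the counts were also 1 and 4. Of all 12699 genes tested, 2354 were higher and 2197 lower at that p, and limma-voom called 1469 higher and 1401 lower. The median log2 fold change was -0.32 in the 8 genes and -0.0019 in all tested genes.

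The libraries held 16486665 to 19900806 reads in genes in CR livers and 15641740 to 16101631 in AL livers. Albumin (Alb) stood at 36441 to 42291 FPKM in CR livers and 13855 to 24725 FPKM in AL livers, and all 7 hepatocyte markers found were expressed. Of these 7, 1 rose (Alb), 1 fell (Fgb) and 5 did not pass, with a median log2 fold change of -0.03. Mitochondrial genes took 5.62% to 8.09% of reads in CR livers and 3.92% to 4.85% in AL livers. These were whole livers, so fewer cells of a type and less RNA per cell cannot be told apart. The 8 endothelial markers summed to 26.2 to 57.8 FPKM in CR livers and 60.4 to 66.0 FPKM in AL livers, and limma called 0 of the 8 in either direction (at an unadjusted p under 0.05, 0 higher and 2 lower, and with limma-voom 0 higher and 1 lower). The 10 Kupffer cell markers summed to 117 to 315 FPKM in CR livers and 207 to 317 FPKM in AL livers, with 1 that rose (Marco) and 1 that fell (C1qa). The 5 red blood cell markers summed to 251 to 397 FPKM in CR livers and 152 to 198 FPKM in AL livers, and their 4 globin genes rose while Alas2, an enzyme of heme synthesis, fell. The stellate sums were 31.7 to 70.7 FPKM in CR livers and 34.5 to 52.7 in AL livers, with 2 of 8 markers that fell (Col1a1 and Col3a1). The bile duct, lymphocyte and neutrophil sums overlapped between the diets. The part of other cell types and of mitochondrial reads in the results on the sialic acid genes was not tested.

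Promoter windows are shown for genes that fell, as a description of the stretches around their annotated start sites. Which start site was in use in these livers was not tested. RefSeq windows of 300 bases on GRCm38.p6, from 250 bases before a start site to 50 after it, were matched for 7 of the 10 genes, and Nans, Nanp and Siae were not among them. Capitals mark the motifs found, and each line reads 5′ to 3′ on the plus strand, which is the strand of the gene in each case. Cmah has a pair of annotated start sites, and of those of Casd1 the first is shown.
Cmah, chr13:24327154-24327453: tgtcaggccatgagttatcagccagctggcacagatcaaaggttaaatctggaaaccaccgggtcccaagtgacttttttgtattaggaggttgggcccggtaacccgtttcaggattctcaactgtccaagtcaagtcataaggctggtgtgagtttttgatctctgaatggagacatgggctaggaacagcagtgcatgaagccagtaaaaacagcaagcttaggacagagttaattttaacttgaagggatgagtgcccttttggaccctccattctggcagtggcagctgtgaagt
Cmah, chr13:24414872-24415171: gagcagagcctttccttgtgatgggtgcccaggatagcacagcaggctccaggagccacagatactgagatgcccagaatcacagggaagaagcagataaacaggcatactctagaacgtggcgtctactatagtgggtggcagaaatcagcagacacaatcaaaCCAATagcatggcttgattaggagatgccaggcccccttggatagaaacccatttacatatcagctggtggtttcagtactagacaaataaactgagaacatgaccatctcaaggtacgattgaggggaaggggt
Cmas, chr6:142756436-142756735: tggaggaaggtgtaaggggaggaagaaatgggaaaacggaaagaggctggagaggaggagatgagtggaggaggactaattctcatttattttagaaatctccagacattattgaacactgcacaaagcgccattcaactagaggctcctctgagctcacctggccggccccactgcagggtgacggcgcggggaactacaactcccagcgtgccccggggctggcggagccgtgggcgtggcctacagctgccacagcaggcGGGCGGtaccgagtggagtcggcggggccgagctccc
Casd1, chr6:4600661-4600960: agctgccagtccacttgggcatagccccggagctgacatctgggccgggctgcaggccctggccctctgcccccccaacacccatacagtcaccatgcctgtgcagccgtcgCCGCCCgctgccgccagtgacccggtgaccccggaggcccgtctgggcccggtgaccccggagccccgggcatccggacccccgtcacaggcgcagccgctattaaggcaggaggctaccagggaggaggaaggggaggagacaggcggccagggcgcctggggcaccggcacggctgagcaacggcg

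Motifs were searched on both strands in the 10 windows of the 7 matched genes. A GC box (GGGCGG) was found in 5 of the 10 windows and in 35.7% of all 32851 windows of the table. It lies at base 14 of Cmas, counted from the start site, and at base -138 of Casd1, where the capitals show its reverse complement. The CCAAT box was found in 2 of the 10 and in 37.4% of all windows, and the second Cmah window holds it at base -85. The first Cmah window held none of the motifs. An E-box (CACGTG) was found in 1 of the 10 (Npl) and in 7.15% of all. The core shared by XBP1 and ATF6 sites (TGACGTG) was found in 0 of the 10 and 2.01% of all, and the STAT5 element (TTCNNNGAA) in 0 of the 10 and 8.30% of all. The motifs do not overlap one another in the 4 windows printed. A match gives the letters only.

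Synthesis starts with Gne, a bifunctional enzyme that turns UDP-GlcNAc into phosphorylated N-acetylmannosamine and that CMP-Neu5Ac inhibits by feedback. Gne (ENSMUSG00000028479, chr4:44034075-44084177, minus strand, GRCm38) had 41.8, 60.5, 44.9 and 39.6 FPKM in CR livers, against 35.3, 38.3 and 39.1 FPKM in AL livers. By FPKM, Gne was the most abundant of the 10 genes in both groups. Every CR liver lay above every AL liver, though the lowest CR and the highest AL liver were almost level, and 1 CR liver stood well above the rest. The log2 fold change was 0.30 (95% confidence interval -0.06 to 0.65, limma adjusted p = 0.213), and it was 0.16 without that CR liver (replicate 2). Gne did not pass the test.

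Nans, the synthase that joins phosphorylated N-acetylmannosamine to phosphoenolpyruvate, comes next. Nans (ENSMUSG00000028334, chr4:46489248-46503632, plus strand) had 2.26, 1.95, 2.05 and 1.84 FPKM in CR livers, against 4.09, 3.83 and 4.48 FPKM in AL livers. The groups were far apart, and the livers within each lay close together. Nans fell with a log2 fold change of -0.99 ± 0.12 (SE; limma adjusted p = 0.00198), lower in 4 of 4 CR livers than in any AL liver. The gene shares 1356 exon bases, 29.6% of its own, with Trim14, a tripartite motif family gene on the opposite strand. Of the 100-base words of Nans, 27.5% also occur in transcripts of other genes. Words were searched on both strands, so the bases shared with Trim14 can count among them. Trim14 had 1.99, 1.92, 1.67 and 1.58 FPKM in CR livers, against 4.12, 4.63 and 7.10 FPKM in AL livers, and fell too (log2 fold change -1.48, limma adjusted p = 0.00278). Whether the authors counted by strand is not stated, so reads from the shared bases of Nans and Trim14 cannot be told apart.

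Nanp, the phosphatase that releases free Neu5Ac, was close to the limit of detection. Nanp (ENSMUSG00000053916, chr2:151029685-151039398, minus strand) was counted with 2, 3, 0 and 2 reads in CR livers, against 6, 39 and 3 reads in AL livers. In FPKM these are 0.0677, 0.123, 0 and 0.0671 in CR livers, against 0.248, 1.54 and 0.129 in AL livers. Most of the AL reads came from 1 liver, and the other AL livers lay just above the CR livers. A fit that kept every gene above 0 in any liver gave a log2 fold change of -1.68 (95% confidence interval -3.23 to -0.13, limma adjusted p = 0.193 over 25678 genes). Of the 100-base words of Nanp, 46.8% occur in other genes, so its level is uncertain. Ninl, a gene on the same strand, shares 146 exon bases with Nanp, 9.81% of those of Nanp. Ninl had 0.0846, 0.103, 0.128 and 0.185 FPKM in CR livers, against 0.206, 0.0989 and 0.0431 FPKM in AL livers. Its groups overlapped, and its mean in CR livers was above that of Nanp.

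Activation is the work of Cmas, which couples sialic acid to CMP in the nucleus. Cmas (ENSMUSG00000030282, chr6:142756686-142775714, plus strand) had 6.02, 6.003, 7.05 and 6.93 FPKM in CR livers, against 10.7, 10.7 and 10.3 FPKM in AL livers. The AL livers were nearly level, and the highest CR liver stayed well below the lowest of them. Cmas fell with a log2 fold change of -0.70 ± 0.10 (SE; limma adjusted p = 0.00364). Of its 100-base words, 0% occur in other genes.

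Cmah moved farthest of the 8 tested genes. It acts on the product of Cmas and is the route by which the mouse makes Neu5Gc, the form that humans lack because their gene is inactive. Cmah (ENSMUSG00000016756, chr13:24327404-24477377, plus strand) had 3.33, 2.87, 2.69 and 3.62 FPKM in CR livers, against 25.4, 19.7 and 25.0 FPKM in AL livers. The group means were 3.13 ± 0.425 FPKM in CR livers (SD, n = 4) and 23.4 ± 3.22 FPKM in AL livers (SD, n = 3). The gap between the groups was several times the spread within either. Cmah fell with a log2 fold change of -2.86 ± 0.14 (SE, 95% confidence interval -3.20 to -2.53, limma adjusted p = 1.94e-05). These values rest on 491 to 773 reads per CR liver and 3561 to 4415 reads per AL liver. Its mean lay above 45.4% of all tested genes in CR livers and above 86.9% in AL livers.

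A noncoding antisense gene, Gm11342, lies across 78867 bases of the Cmah locus without sharing exon bases with it. It is named after its values were seen. Gm11342 had 0.0282, 0.137, 0.0655 and 0.112 FPKM in CR livers, against 1.27, 0.891 and 0.503 FPKM in AL livers. Both groups were low, and every CR liver lay below every AL liver. Gm11344, a processed pseudogene on the same strand as Gm11342 within the locus, was likewise named after its values were seen. Gm11344 had 0, 0.182, 0 and 0 FPKM in CR livers, against 1.10, 0.527 and 0.575 FPKM in AL livers. Whether counting was by strand is not stated, so their reads cannot be told apart from unspliced Cmah RNA. Cmah has 0% of its 100-base words in other genes.

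Transport into the Golgi and out of the lysosome showed smaller differences. Slc35a1, the Golgi carrier that exchanges CMP-sialic acid for CMP (ENSMUSG00000028293, chr4:34663257-34687438, minus strand), had 9.11, 7.22, 8.43 and 9.41 FPKM in CR livers, against 9.02, 7.98 and 9.79 FPKM in AL livers. The groups lay on top of each other. The log2 fold change was -0.07 (95% confidence interval -0.36 to 0.23, limma adjusted p = 0.744), and its sign turned when CR replicate 2 (0.011) or AL replicate 3 (0.0020) was left out. Slc17a5, or sialin, exports free sialic acid from lysosomes. Slc17a5 (ENSMUSG00000049624, chr9:78536488-78588041, minus strand) had 8.997, 10.01, 8.40 and 9.52 FPKM in CR livers, against 9.79, 11.4 and 11.5 FPKM in AL livers, so that the groups overlapped. Its log2 fold change was -0.24 (95% confidence interval -0.48 to 0.01, limma adjusted p = 0.154).

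Breakdown was represented at a low level in both diets. Npl, the lyase that splits sialic acid into N-acetylmannosamine and pyruvate (ENSMUSG00000042684, chr1:153503015-153550045, minus strand), had 0.408, 0.310, 0.217 and 0.371 FPKM in CR livers, against 0.207, 0.358 and 0.390 FPKM in AL livers. The groups covered much the same range, from 11 to 24 reads per CR liver and 10 to 18 reads per AL liver. In the fit without the filter the log2 fold change was 0.03 (95% confidence interval -0.63 to 0.70, limma adjusted p = 0.952).

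O-acetylation is set by an enzyme pair. Casd1 adds O-acetyl groups to sialic acid in the Golgi with acetyl-CoA as donor. Casd1 (ENSMUSG00000015189, chr6:4600839-4643355, plus strand) had 7.17, 6.05, 6.41 and 6.31 FPKM in CR livers, against 8.20, 9.26 and 8.52 FPKM in AL livers. The groups did not overlap. Casd1 fell with a log2 fold change of -0.41 ± 0.10 (SE; limma adjusted p = 0.0260). This call was lost without the filter (limma adjusted p = 0.0568) and when any of 5 livers was left out. The limma adjusted p was 0.0538 without AL replicate 1, 0.107 without AL replicate 2, 0.0684 without CR replicate 2, 0.0580 without CR replicate 3 and 0.0568 without CR replicate 4.

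Siae, the esterase that removes these O-acetyl groups, lay the other way. Siae (ENSMUSG00000001942, chr9:37555698-37649655, plus strand) had 5.40, 6.13, 4.86 and 5.02 FPKM in CR livers, against 3.42, 3.42 and 4.79 FPKM in AL livers. All CR livers lay above all AL livers, but AL replicate 3 came within a small step of the lowest CR liver. The log2 fold change was 0.47 (95% confidence interval 0.11 to 0.82, limma adjusted p = 0.0663), which missed the threshold. It passed in limma-voom on recovered reads (adjusted p = 0.0450) and without AL replicate 3 (log2 fold change 0.63, limma adjusted p = 0.0172). Siae shares 741 exon bases, 7.06% of its own, with Tbrg1 on the opposite strand, and 391 bases, 3.72%, with Spa17. Tbrg1, a growth regulator, had 5.47, 6.80, 7.33 and 5.65 FPKM in CR livers, against 11.5, 10.4 and 7.32 FPKM in AL livers. Its groups overlapped by a hair, and its call (log2 fold change -0.60, limma adjusted p = 0.0496) was lost under 12 of 16 alternatives. Spa17, a sperm protein gene, had 0.285, 0.691, 0.165 and 0.565 FPKM in CR livers, against 0.289, 0 and 0.423 FPKM in AL livers. The part of these shared bases in the level of Siae was not tested.

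**Figure D1:**
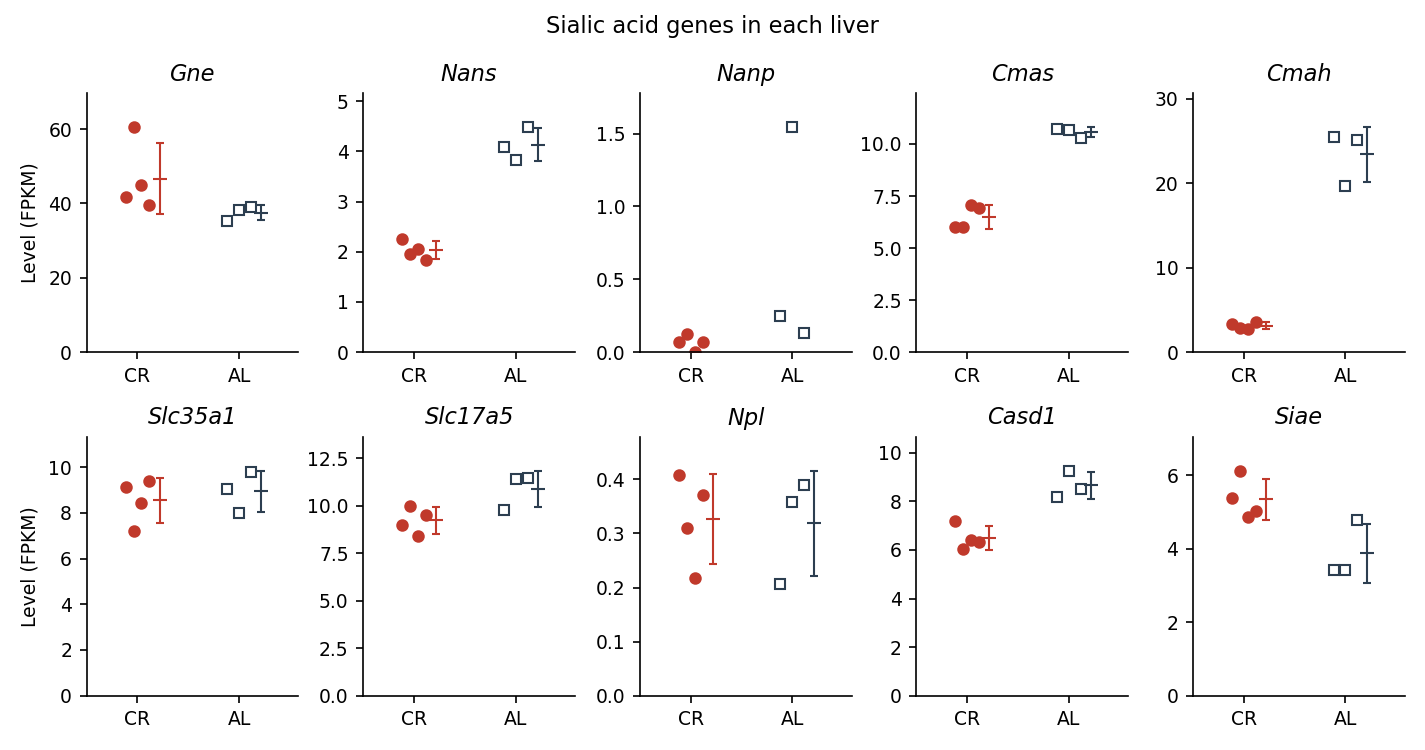
Level of each sialic acid gene in FPKM in the 4 CR livers (filled circles) and the 3 AL livers (open squares), with the mean and SD of each group beside the points except for Nanp, whose AL values span 0.129 to 1.54 FPKM. Each panel has its own axis from 0, and Cmah sits at 2.69 to 3.62 FPKM in CR livers and at 19.7 to 25.4 FPKM in AL livers.

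**Figure D2:**
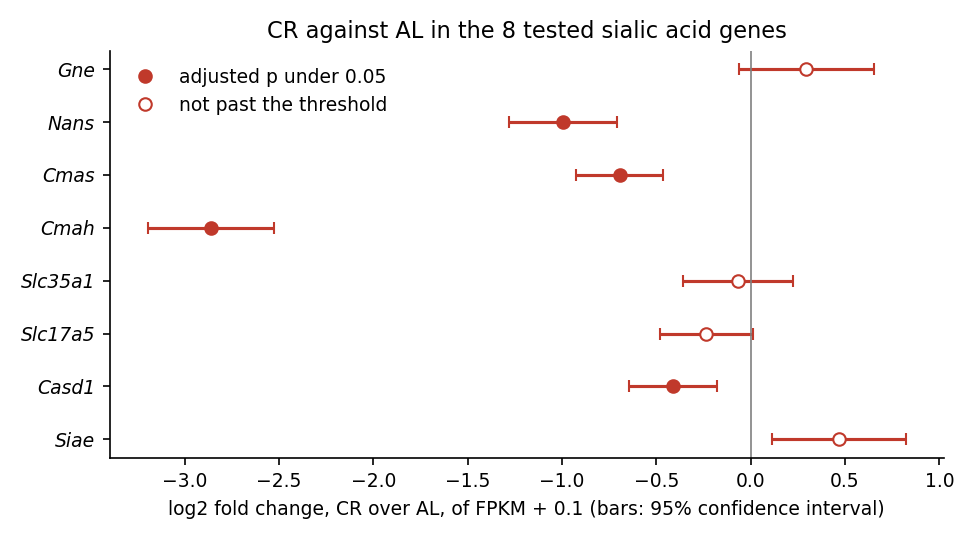
log2 fold change of CR over AL with its 95% confidence interval from limma for the 8 tested genes, filled where the adjusted p was under 0.05. Cmah stands apart at -2.86, Nans, Cmas and Casd1 lie left of 0, and Gne and Siae lie right of 0 without passing the threshold.

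The order of the genes by level differed between the diets mainly through Cmah. By mean FPKM, Cmah ranked 7 of 10 in CR livers and 2 of 10 in AL livers. In CR livers the order was Gne, Slc17a5, Slc35a1, Cmas, Casd1, Siae, Cmah, Nans, Npl and Nanp. Among these neighbours the ranges of Slc17a5 and Slc35a1, of Cmas and Casd1, and of Casd1 and Siae overlapped over the CR livers. In AL livers the order was Gne, Cmah, Slc17a5, Cmas, Slc35a1, Casd1, Nans, Siae, Nanp and Npl. The ranges of Slc17a5 and Cmas, of Slc35a1 and Casd1, of Nans and Siae, and of Nanp and Npl overlapped over the AL livers. The median coefficient of variation within a diet was 9.74% in CR livers and 8.37% in AL livers over the 8 tested genes, beside 15.5% in CR livers and 15.6% in AL livers over all tested genes. The highest values among the 8 were 20.3% for Gne in CR livers and 20.4% for Siae in AL livers, both above the median of all genes. The 8 genes were not matched for level with all tested genes.

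Ratios of genes that act in sequence or in opposition were taken within each liver, where a difference in depth between libraries cancels. The pairs were chosen after their values were seen, and no test was made. Which gene of a pair stands higher depends on the gene lengths used, while a difference in ratio between diets does not. Cmah over Cmas was 0.553, 0.478, 0.382 and 0.523 in CR livers, against 2.37, 1.84 and 2.44 in AL livers. By FPKM, the hydroxylase lay below the enzyme before it in every CR liver and above it in every AL liver. In reads, Cmah had 704, 501, 491 and 773 in CR livers, against 563, 463, 569 and 654 for Cmas. In AL livers the reads were 4415, 3561 and 4161 for Cmah and 822, 856 and 755 for Cmas. Casd1 over Siae was 1.33, 0.988, 1.32 and 1.26 in CR livers, against 2.40, 2.71 and 1.78 in AL livers. By FPKM, the acetylating enzyme was above the esterase in 3 of 4 CR livers and in every AL liver. The ratio was lower in every CR liver than in any AL liver. In reads, Siae had 1125, 1053, 873 and 1055 in CR livers, against 575, 400, 443 and 510 for Casd1. In AL livers the reads were 584, 610 and 784 for Siae and 539, 635 and 536 for Casd1. Gne over Nans was 18.5, 31.1, 21.9 and 21.5 in CR livers, against 8.62, 9.99 and 8.72 in AL livers. The groups did not overlap in any of these ratios. For Casd1 over Siae and Gne over Nans this followed from the single genes, whose groups lay apart in opposite directions. For Cmah over Cmas it followed from their ranges. In CR livers these were 2.69 to 3.62 FPKM for Cmah and 6.003 to 7.05 FPKM for Cmas. In AL livers they were 19.7 to 25.4 FPKM for Cmah and 10.3 to 10.7 FPKM for Cmas. How often other pairs of genes lie apart was not counted.

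**Figure D3:**
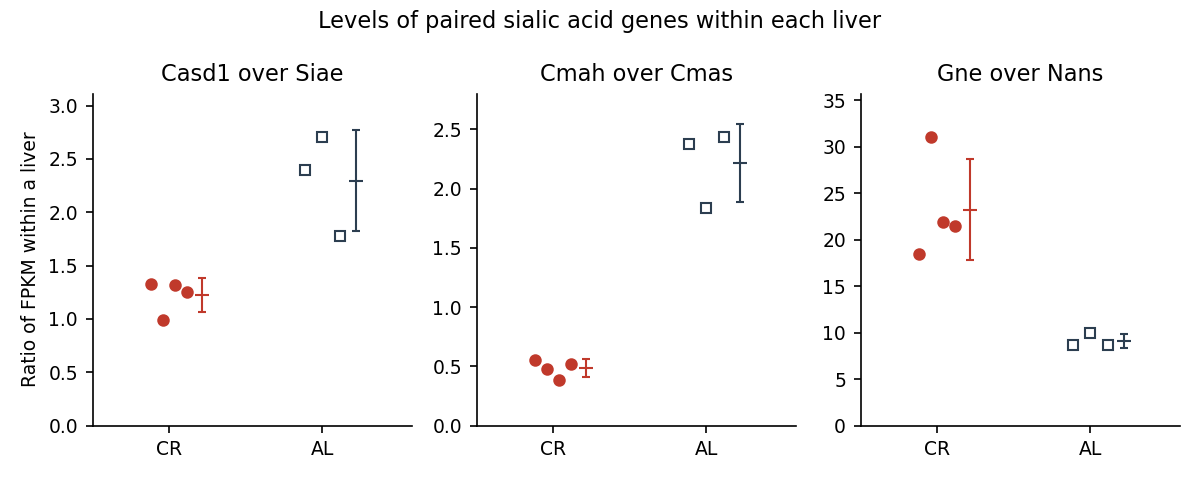
Ratio of FPKM within each liver for Casd1 over Siae, Cmah over Cmas and Gne over Nans, with the 4 CR livers as filled circles and the 3 AL livers as open squares, and mean and SD beside them. Cmah over Cmas is 0.382 to 0.553 in CR livers and 1.84 to 2.44 in AL livers.

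The genes around the pathway were described from 5 lists that held 46 genes, of which 28 could be tested. Of these 2 rose, 7 fell and 19 did not pass. The lists were written with earlier results of these data known, so their counts are a description beside the 11.3% and 10.2% of all tested genes that rose and fell. The counts at an unadjusted p under 0.05 stand beside 2354 higher and 2197 lower of all 12699 tested genes. Those with limma-voom stand beside 1469 higher and 1401 lower.

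Supply of UDP-GlcNAc, the starting sugar, had 8 tested genes, of which 0 rose and 2 fell in limma. At an unadjusted p under 0.05, 1 was higher and 4 were lower, and limma-voom called 0 higher and 2 lower. Gfpt1, the rate-limiting enzyme of the hexosamine pathway, had 2.63, 2.60, 2.37 and 2.20 FPKM in CR livers, against 6.40, 6.34 and 4.23 FPKM in AL livers (log2 fold change -1.15, limma adjusted p = 0.00385). Pgm3, a mutase of the same pathway, had 1.86, 2.78, 2.37 and 2.07 FPKM in CR livers, against 4.31, 4.17 and 4.86 FPKM in AL livers (-0.95, limma adjusted p = 0.00579). Neither gene had overlapping groups. Uap1, which forms UDP-GlcNAc and had the highest mean of the list, had a log2 fold change of -0.44 (limma adjusted p = 0.0710), and -0.62 without AL replicate 3 (limma adjusted p = 0.00913).

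Supply of CTP and recycling of CMP had 4 tested genes, of which 1 rose and 0 fell in limma. At an unadjusted p under 0.05, 2 were higher and 0 lower, and limma-voom called 1 higher and 0 lower. Ctps2, a CTP synthase, had 3.66, 3.95, 3.24 and 2.78 FPKM in CR livers, against 1.30, 1.47 and 1.69 FPKM in AL livers, and rose with a log2 fold change of 1.14 (limma adjusted p = 0.00330). Cmpk1, a CMP kinase and the gene with the highest mean of the list, had a log2 fold change of 0.20 (limma adjusted p = 0.137).

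Sialyltransferases, which move sialic acid from CMP to glycans, had 7 tested genes of 20, and 4 genes were at 0 in every liver (St6gal2, St6galnac1, St8sia5 and St8sia6). Of the 7 tested, 0 rose and 4 fell in limma. At an unadjusted p under 0.05, 1 was higher and 5 were lower, and limma-voom called 1 higher and 4 lower. St6gal1, which links sialic acid to galactose on N-glycans, had 12.6, 12.7, 9.35 and 8.76 FPKM in CR livers, against 29.8, 32.5 and 22.5 FPKM in AL livers (log2 fold change -1.37, limma adjusted p = 0.00295). St3gal3, which forms another linkage to galactose, had 12.5, 13.5, 15.8 and 14.7 FPKM in CR livers, against 30.7, 33.6 and 31.6 FPKM in AL livers (-1.18, limma adjusted p = 4.70e-04). Both were lower in every CR liver than in any AL liver. St3gal1, which acts on O-glycans, averaged 13.1 FPKM in CR livers and 26.7 FPKM in AL livers (-1.01, limma adjusted p = 0.0120, and 0.0550 without AL replicate 2). St6galnac6, which acts mainly on glycolipids, averaged 5.94 FPKM in CR livers and 11.7 FPKM in AL livers (-0.97, limma adjusted p = 0.00238). St3gal5, the GM3 synthase and the most abundant of the list, had 71.1, 65.0, 103 and 127 FPKM in CR livers, against 47.6, 57.1 and 58.2 FPKM in AL livers. Its groups did not overlap, and its log2 fold change of 0.71 missed the threshold (limma adjusted p = 0.0722), which it passed in limma-voom (0.0484) and without CR replicate 2 (0.0493).

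Sialidases, which remove sialic acid, and the proteins of their lysosomal complex had 5 tested genes of 6, and Neu4 was at 0 in every liver. Of the 5, 1 rose and 0 fell in limma. At an unadjusted p under 0.05, 2 were higher and 0 lower, and limma-voom called 1 higher and 0 lower. Neu1, the lysosomal sialidase, averaged 14.9 FPKM in CR livers and 10.2 FPKM in AL livers. Its log2 fold change of 0.62 missed the threshold (limma adjusted p = 0.0876). Ctsa, the protective protein of the lysosomal sialidase, had 34.1, 40.2, 38.2 and 38.8 FPKM in CR livers, against 24.8, 24.8 and 29.6 FPKM in AL livers (log2 fold change 0.52, limma adjusted p = 0.0147). The call was lost without AL replicate 1 (adjusted p = 0.0617) or AL replicate 2 (adjusted p = 0.0690).

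Acetyl-CoA supply and its import into the secretory pathway, which serve Casd1, had 4 tested genes of 5, of which 0 rose (limma; 0 also at an unadjusted p under 0.05 and with limma-voom) and 1 fell. Slc33a1, the acetyl-CoA carrier of the endoplasmic reticulum membrane, had 11.1, 12.0, 10.4 and 9.76 FPKM in CR livers, against 20.0, 22.4 and 18.7 FPKM in AL livers (log2 fold change -0.90, limma adjusted p = 0.00189). Slc25a1, the mitochondrial citrate carrier and the most abundant of the list, had a log2 fold change of 0.15 (limma adjusted p = 0.304). Acss2 averaged 28.8 FPKM in CR livers and 17.4 FPKM in AL livers (0.71, limma adjusted p = 0.149). Acly averaged 38.9 FPKM in CR livers and 48.6 FPKM in AL livers (-0.33, limma adjusted p = 0.332).

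**Figure D4:**
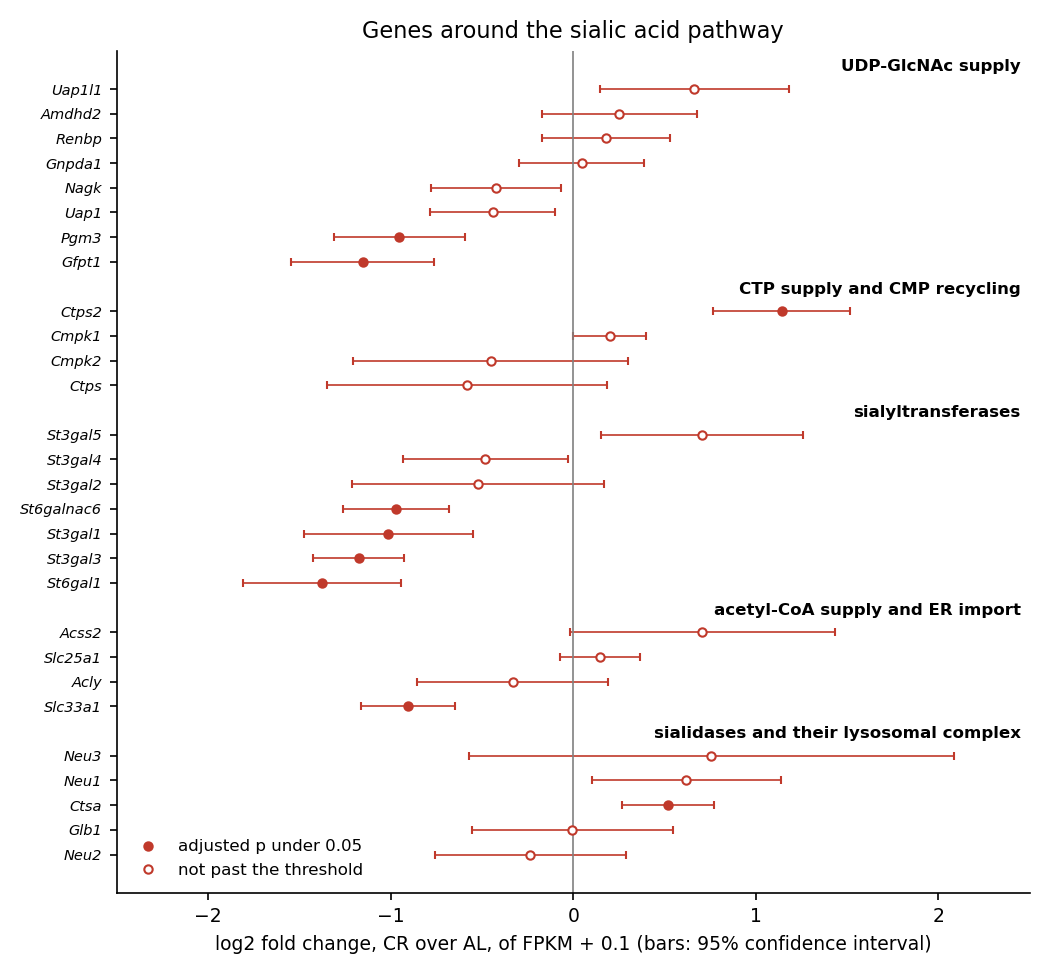
log2 fold change of CR over AL with its 95% confidence interval from limma for the 28 tested genes of the 5 lists around the pathway, filled where the adjusted p was under 0.05. The 4 sialyltransferases that fell lie between -1.37 and -0.97, and Ctps2 and Ctsa are the genes that rose, at 1.14 and 0.52.

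Genes whose pattern over the 7 livers was most like that of Cmah, Nans or Cmas were sought among genes with a mean of at least 5 FPKM, by the root mean square difference of log2(FPKM + 0.1) after each gene's mean was subtracted. Nearest to Cmah were Hao1, the peroxisomal glycolate oxidase (0.143), Saa4, a constitutive serum amyloid A (0.230), and Sdr9c7, a short-chain dehydrogenase (0.232). Hao1 had 23.1, 17.4, 16.9 and 21.9 FPKM in CR livers, against 146, 129 and 122 FPKM in AL livers. Like Cmah, Hao1 was higher in CR replicates 1 and 4 than in CR replicates 2 and 3, but it was picked for such likeness. In AL livers the lowest was replicate 3 for Hao1 and replicate 2 for Cmah. Nearest to Nans were Crp (0.0517), the C-reactive protein gene, Prdx4 (0.0958), a peroxiredoxin of the endoplasmic reticulum, and Gbf1 (0.111), an exchange factor of Golgi traffic. Nearest to Cmas were Edem3 (0.0701), which acts on misfolded glycoproteins, Pde4dip (0.0712), a scaffold protein of the Golgi and centrosome, and Preb (0.0720), which activates export from the endoplasmic reticulum. A small difference here is a likeness of pattern over 7 livers in 2 groups, which any gene with the same fold change shares in large part.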

How the data were processed

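Liver poly(A) RNA of 4 CR and 3 AL mice was measured. The authors deposited 1 table of FPKM values with gene lengths, and the submitters' notes give featureCounts 1.5.0-p3, HISAT2 2.0.5 and CASAVA 2.19, with the build GRCm38 (mm10). The formula of FPKM and the strand setting of the counting are not given in the sources used here. Multiplied by gene length, the FPKM returned whole reads within 0.01, and limma-voom was run on these as an alternative. Genes with at least 0.5 FPKM in 3 of 7 livers were fitted as log2(FPKM + 0.1) with limma 3.58.1 (trend, robust, statmod 1.5.0, R 4.3.3), two-sided, CR minus AL, with no block. The fit was tested on simulated data. Python 3.11.15 and matplotlib 3.10.9 drew the figures. The study took 1 liver per mouse.

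Named were all 10 genes, and of each list those called (at most 4) and that with the highest mean. Neu1, Acss2 and Acly are named outside this rule. Also named were the 3 nearest profiles of the 3 genes with the smallest adjusted p, overlapping genes at 5% or more of a gene's mean FPKM, and Alb. Members, lists and rule were chosen with earlier results of these data known. Gene overlaps and shared 100-base words were taken from GENCODE M21, whose spans equal those deposited. Alternatives covered pseudocount, filter, scaling, variance model, limma-voom, the replicate number as a block, a rule on unadjusted p, and leaving out each liver.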

Additional observations from a re-analysis of the deposited data

How the results depend on the processing

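Over 16 alternatives, Cmah, Nans and Cmas stayed past the threshold in 16 of 16 and Casd1 in 9 of 16. Of the 128 values of the 8 tested genes, 117 kept direction and side of the threshold, 7 lost the call (all Casd1), 2 gained it (both Siae) and 2 turned sign (Slc35a1, 0.0020 without AL replicate 3 and 0.011 without CR replicate 2, in a range of -0.14 to 0.011 with 1 liver left out). The causes were not tested.

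The count of sialic acid genes that rose was 1 with limma-voom, and 0 to 1 when 1 liver was left out, with the 1 coming without AL replicate 3. The count that fell was 3 to 4 when 1 liver was left out. Over all genes, 669 to 1514 rose (1433 with all livers) and 540 to 1149 fell (1291 with all livers) with 1 liver left out, and the lowest counts came without AL replicate 2. Of the genes in the 5 lists, 1 to 3 rose and 6 to 10 fell (7 with all livers) when 1 liver was left out. By the rule of an unadjusted limma p under 0.05 and a log2 fold change above 0.5 in size, 5 rose and 7 fell. Under that rule, 1552 of all 12699 tested genes rose and 1595 fell.

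The labels and the study name no pairing of livers, so the replicate numbers were not taken as pairs. Deviations of livers with the same number had correlations of 0.0313, -0.0442 and -0.0575. Those of livers with different numbers ran from -0.0765 to 0.0948. With the replicate block, 482 genes rose and 508 fell, 1 gene of the 5 lists rose and 5 fell, and 3 sialic acid genes fell. The limma adjusted p was then 0.144 for Casd1, 0.0521 for Pgm3, 0.0623 for St3gal1 and 0.0803 for Ctsa, whose calls were lost. Depth limits Nanp and Npl, at 0 to 39 reads per liver.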
